A study of Homo sapiens with 15 samples.

Results

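The genes described here encode the structural subunits of the mitochondrial respiratory chain and ATP synthase, complexes I to V. They were taken by symbol (NDUFA, NDUFB, NDUFC, NDUFS and NDUFV genes, SDHA to SDHD, UQCR genes, COX4 to COX8 genes, ATP5F1, ATP5M and ATP5P genes, and MT-ND, MT-CO, MT-CYB and MT-ATP genes), leaving out the assembly factors named NDUFAF and SDHAF and the gene NDUFA4L2. This gave 101 of the 21493 genes counted. Of these, 13 are encoded by mitochondrial DNA (mtDNA), 7 of them in complex I, 1 in complex III, 3 in complex IV and 2 in complex V. The other 88 are nuclear, 38 in complex I, 4 in complex II, 9 in complex III, 18 in complex IV and 19 in complex V. NDUFA4, named as a complex I gene, was placed in complex IV, where its protein is found.

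Poly(A) RNA of NCI-H295R cells, which derive from a human carcinoma of the adrenal cortex and make steroid hormones, was sequenced in 15 libraries. The first pair of groups was unedited cells 3 days after transfection with a plasmid for a constitutively active, truncated NFATC4 (ΔNFATC4, n = 3) and cells transfected with the empty plasmid (mock, n = 4). The second pair was cells labelled NFATC4-KO (n = 4), obtained with CRISPR/Cas9 guides to exons 3 and 5 of NFATC4 and grown from single cells, and control cells (n = 4), which had received empty plasmids in parallel with the editing. NFATC4 is a calcineurin-dependent transcription factor. The labels do not say whether libraries of a group came from separate cultures or clones, so the p-values measure only the spread between these libraries, which may be technical. Libraries held 18777737 to 28164717 counts. Libraries 1 and 2 and libraries 3 to 5 of the NFATC4-KO and control groups differed from each other in many genes, so they are called here the set of replicates 3 to 5 and the set of replicates 1 and 2. The NFATC4 gene itself had 330, 359 and 342 CPM (counts scaled to a common library size) in ΔNFATC4 libraries, against 91.3, 93.4, 106 and 87.5 in mock libraries. It had 57.5 and 53.6 CPM in the NFATC4-KO libraries of replicates 3 to 5, against 44.8 and 54.0 in the control libraries of that set, and 92.6 and 85.4 in the NFATC4-KO libraries of replicates 1 and 2, against 114 and 110 in their controls. The count of the whole gene therefore did not separate the edited from the control libraries in the set of replicates 3 to 5, and NFATC4-KO is used below as the name on the label.

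Complexes I to IV pass electrons from NADH and succinate to oxygen and pump protons across the inner mitochondrial membrane, and complex V uses the proton gradient to make ATP. Complex II is made of nuclear subunits alone. The others combine subunits made inside the mitochondrion from mtDNA, which form much of the catalytic core in the membrane, with subunits made in the cytosol from nuclear genes. In the adrenal cortex the same inner membrane also carries the cytochrome P450 enzymes CYP11A1, CYP11B1 and CYP11B2, which take their electrons from NADPH through adrenodoxin and not from the respiratory chain.

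The mtDNA genes lie next to one another on the circular chromosome, and several share bases, which matters for reading their counts. MT-ATP8 (chrM:8366-8572) and MT-ATP6 (chrM:8527-9207), both in complex V, overlap by 46 bases, and MT-ND4L (chrM:10470-10766) and MT-ND4 (chrM:10760-12137), both in complex I, by 7 bases. Both overlaps are shown with 20 bases on each side, with the shared bases in capitals, from the GENCODE release 44 transcripts on GRCh38 (plus strand, chrM:8507-8592 and chrM:10740-10786).
MT-ATP8 and MT-ATP6: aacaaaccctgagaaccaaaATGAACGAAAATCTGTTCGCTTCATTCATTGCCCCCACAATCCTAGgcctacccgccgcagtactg
MT-ND4L and MT-ND4: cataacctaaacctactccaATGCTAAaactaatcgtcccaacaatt
Of the 13 genes, MT-ND6 alone is read from the other strand. The first 120 bases of the coding regions of MT-ND3 (chrM:10059-10178, plus strand) and MT-ND6 (chrM:14554-14673, minus strand), the members whose levels are given in most detail below, are shown in the direction of the RNA, with the start codon in capitals.
MT-ND3: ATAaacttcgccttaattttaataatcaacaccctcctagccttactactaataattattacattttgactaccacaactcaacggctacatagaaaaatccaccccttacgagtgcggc
MT-ND6: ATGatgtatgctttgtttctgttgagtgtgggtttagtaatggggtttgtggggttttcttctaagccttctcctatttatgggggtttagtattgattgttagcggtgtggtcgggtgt
G made up 35.6% of the bases of MT-ND6 and C 7.05%, while in the other 12 genes G made up 6.28% to 16.2% and C 29.5% to 36.0%. The ND6 mRNA is also known as the human mitochondrial mRNA without a stable poly(A) tail, which bears on any poly(A)-selected library.

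Nuclear members were placed by the promoter table of RefSeq (GRCh38.p14, 250 bases before to 50 after the start), which held 70 of the 88. Motifs of factors known to bind respiratory gene promoters were searched on both strands. The NRF1 core GCATGCGC was in 13 of the 70 promoters (18.6%), against 3.27% of all 27305 promoters. The YY1 core AAGATGGC was in 11 (15.7%, against 3.03%), and the ETS core CGGAAG, which GABP binds, was in 28 (40.0%, against 19.9%). At least 1 of the 3 was in 40 of the 70 (57.1%, against 23.9%). The CCAAT box (34.3% against 35.7%), the TATA box TATAAA (10.0% against 12.0%) and the NFAT core GGAAA (68.6% against 61.4%) differed less. The median GC content was 61.2% in the members' promoters and 58.3% in all, which bears on GC-rich motifs. The 150 bases before the start are shown for 3 members that separated the library sets (below), with NRF1 or ETS cores in capitals. Only members with a core in these bases are shown: NDUFS6 (chr5:1801257-1801406, plus strand), COX6B1 (chr19:35648173-35648322, plus strand) and ATP5PD (chr17:75046970-75047119, minus strand).
NDUFS6: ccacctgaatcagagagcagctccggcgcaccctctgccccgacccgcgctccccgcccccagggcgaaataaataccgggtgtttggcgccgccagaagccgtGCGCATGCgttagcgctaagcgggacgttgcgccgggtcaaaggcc
COX6B1: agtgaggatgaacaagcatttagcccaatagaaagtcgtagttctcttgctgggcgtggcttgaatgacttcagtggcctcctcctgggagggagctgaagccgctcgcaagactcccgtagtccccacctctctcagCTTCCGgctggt
ATP5PD: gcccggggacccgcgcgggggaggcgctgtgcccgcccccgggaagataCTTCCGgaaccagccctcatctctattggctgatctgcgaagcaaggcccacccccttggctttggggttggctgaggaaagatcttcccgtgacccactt
The NRF1 core in NDUFS6 and the ETS cores in COX6B1 and ATP5PD are read here from the opposite strand. A match of letters is a description and not a bound site.

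The 13 mtDNA genes took 8.82% to 13.1% of all counts in a library, and the 88 nuclear genes together 0.929% to 1.20%. The mtDNA share was 11.8%, 11.8% and 11.5% in ΔNFATC4 libraries, against 13.1%, 11.5%, 11.3% and 11.1% in mock libraries. It was 10.5%, 9.71%, 9.52% and 10.3% in NFATC4-KO libraries 1, 2, 3 and 5, against 10.1%, 9.95%, 8.97% and 8.82% in control libraries 1 to 4. Within either pair the groups overlapped, and mock library 1 and control libraries 3 and 4 stood at the ends of the range. Every ΔNFATC4 and mock library was above every NFATC4-KO and control library. Recent transfection, culture and library preparation cannot be told apart between these 2 pairs of groups. Mock library 1 was also the highest for the nuclear members (1.20%, against 1.05% to 1.10% in the other mock libraries). After scaling with TMM, the summed mtDNA level was 10.8 ± 0.186 times the summed nuclear level in ΔNFATC4 libraries (SD, n = 3), against 10.7 ± 0.393 in mock libraries (n = 4). It was 10.4 ± 0.885 times in NFATC4-KO libraries, against 9.46 ± 0.773 in control libraries (n = 4 each).

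**Figure D1:**
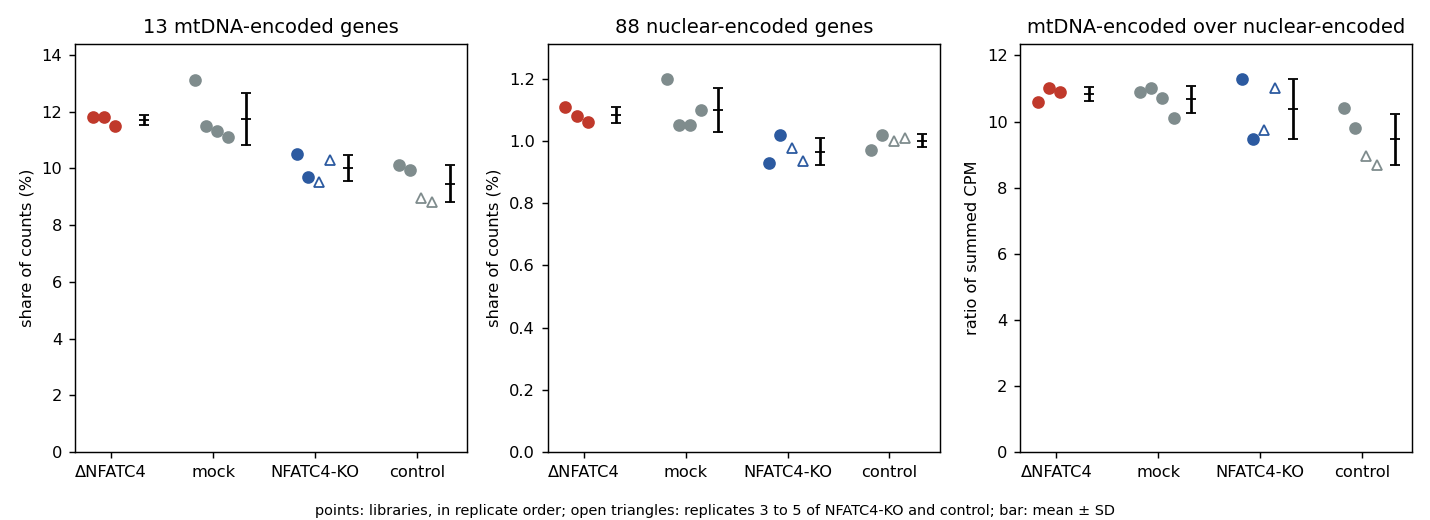
Share of counts in the mtDNA-encoded genes (left, %), in the nuclear-encoded genes (middle, %) and the ratio of their summed CPM (right), by group; points are libraries, open triangles replicates 3 to 5 of NFATC4-KO and control, and bars the mean ± SD. The ΔNFATC4 and mock libraries lie at 11.1% to 13.1% for mtDNA genes, and the NFATC4-KO and control libraries at 8.82% to 10.5%.

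Per kilobase of annotated exon, 12 of the 13 mtDNA genes stood above every nuclear member, and MT-ND6 stood among the highest nuclear members. On the CPM per kb scale, averaged over 15 libraries, MT-CO3 (20600), MT-CO2 (17300) and MT-ND4 (15700) were highest, followed by MT-ATP6 (12200), MT-CO1 (11300), MT-ATP8 (11200), MT-ND4L (10200) and MT-CYB (8910). MT-ND2 (4770), MT-ND1 (4230), MT-ND5 (3140) and MT-ND3 (3090) came next, and MT-ND6 stood at 210. MT-CO1 to MT-CO3 are the catalytic and core subunits of complex IV, MT-CYB is the cytochrome b of complex III, and the ND genes encode membrane subunits of complex I. Neighbours in this order overlapped in their ranges over the libraries, except MT-CYB (7490 to 12000 CPM per kb) above MT-ND2 (4060 to 6170) and MT-ND3 above MT-ND6: MT-CO3 ran over 16800 to 25600 CPM per kb, MT-CO2 over 13000 to 20800 and MT-ND4 over 12100 to 20800, while the highest MT-ND6 value, 372, was far under the lowest MT-ND3 value, 2390. Among nuclear members ATP5F1B, the catalytic beta subunit of complex V, led with 636 CPM per kb, followed by COX8A (335), NDUFS5 (173) and ATP5ME (148). The length joins the exons of all annotated transcripts of a gene, so the order of nuclear members depends on the annotation. ATP5F1A, with 10.9 kb and 525 CPM, came to 48.1 CPM per kb, and COX8A had 0.494 kb and 166 CPM. Of the exonic bases of COX8A, 35.4% also lie in another annotated gene on the same strand.

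The isoform pairs of complex IV showed which forms these cells use. Tissue-specific isoforms were near 0: COX6A2 and COX7A1, the heart and muscle forms, had 0 counts in all 15 libraries, which allows up to 0.107 to 0.160 CPM in a library. COX4I2 had 1 count in all libraries together, ATP5MGL 5 and COX8C 17. The common isoforms were abundant: COX4I1 ran over 209 to 294 CPM, COX6A1 over 105 to 154, COX7A2 over 103 to 168 and COX8A over 126 to 200. COX6B2, a testis isoform, had 1.21 CPM on average and 424 counts in all, against 104 to 244 CPM for its common partner COX6B1. The catalytic subunit of complex II, SDHA, ran over 215 to 276 CPM, the iron-sulfur subunit SDHB over 63.8 to 79.6, and the membrane anchors SDHC over 57.8 to 75.5 and SDHD over 60.2 to 86.0. Of the exonic bases of SDHA, 21.7% also lie in another annotated gene on the same strand. NDUFC2-KCTD14 and ATP5MF-PTCD1 are readthrough genes: 51.8% of the exonic bases of NDUFC2-KCTD14 are also bases of NDUFC2, and 83.3% of those of ATP5MF-PTCD1 are also bases of PTCD1. Their counts (79.2 to 113 and 51.6 to 67.1 CPM) cannot be assigned to them alone.

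The first comparison asks what active NFATC4 does to these genes. Hardly any changed: 3 complex I genes fell in ΔNFATC4 cells relative to mock cells, and none rose. The mtDNA gene MT-ND3 was 1 of 13 mtDNA members that fell, and NDUFC1 and NDUFB6 were 2 of the 83 nuclear members tested (log2 fold changes -0.31, -0.29 and -0.25). Of all 14094 genes tested, 7.69% rose and 6.10% fell (edgeR quasi-likelihood test, Benjamini-Hochberg adjusted p under 0.05). The median log2 fold change was -0.02 over the mtDNA members and -0.07 over the nuclear members tested, against 0.00 over all genes. Of the nuclear members tested, 61 of 83 lay below 0, against 7136 of 14094 genes. Mock library 1 stood highest in these genes, and its part in this lean was not tested by itself. Its summed nuclear level was 12319 CPM, against 10588 to 11137 CPM in the other mock libraries and 10455 to 11067 CPM in ΔNFATC4 libraries, which overlapped. The count below 0 without that library is not given here.

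MT-ND3, a membrane subunit of complex I, had 1010, 1040 and 1060 CPM in ΔNFATC4 libraries, against 1400, 1220, 1230 and 1260 CPM in mock libraries. The groups did not overlap, and the ΔNFATC4 values lay close to the 827 to 1090 CPM of the NFATC4-KO and control libraries. Its log2 fold change was -0.31 (SE 0.06, edgeR adjusted p = 0.00148). As a share of all mtDNA counts MT-ND3 took 0.857% to 0.926% in ΔNFATC4 libraries, against 1.05% to 1.12% in mock libraries. The call was lost when all 15 libraries shared 1 estimate of the spread, with an edgeR adjusted p of 0.0525.

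NDUFC1, a small accessory subunit of complex I, had 78.0, 79.3 and 76.8 CPM in ΔNFATC4 libraries, against 103, 92.1, 92.6 and 94.7 CPM in mock libraries. Its log2 fold change was -0.29 (SE 0.06, edgeR adjusted p = 0.0032). The ΔNFATC4 values again fell among those of the NFATC4-KO and control libraries, 68.9 to 83.2 CPM, with the mock libraries above them. Of its annotated exonic bases, 12.0% also belong to MGARP on the same strand, so reads of the 2 genes can mix there.

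NDUFB6, an accessory subunit of the membrane arm of complex I, had 55.5, 50 and 50.6 CPM in ΔNFATC4 libraries, against 66.3, 60.5, 59.6 and 61.5 CPM in mock libraries. Its log2 fold change was -0.25 (SE 0.07, edgeR adjusted p = 0.0172). The groups did not overlap, and the NFATC4-KO and control libraries ran over 47.7 to 58.6 CPM. The call was lost without ΔNFATC4 replicate 2 (adjusted p = 0.113), without ΔNFATC4 replicate 3 (0.0938) and with all 15 libraries in the fit (0.0700). NDUFC1 stayed called in each of these fits. Leaving out mock replicate 2 brought 4 nuclear calls (NDUFB4 and NDUFC2-KCTD14 joined), leaving out mock replicate 1 brought 3 (NDUFB3 rose) and leaving out mock replicate 4 brought 3 (UQCR11 joined).

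**Figure D2:**
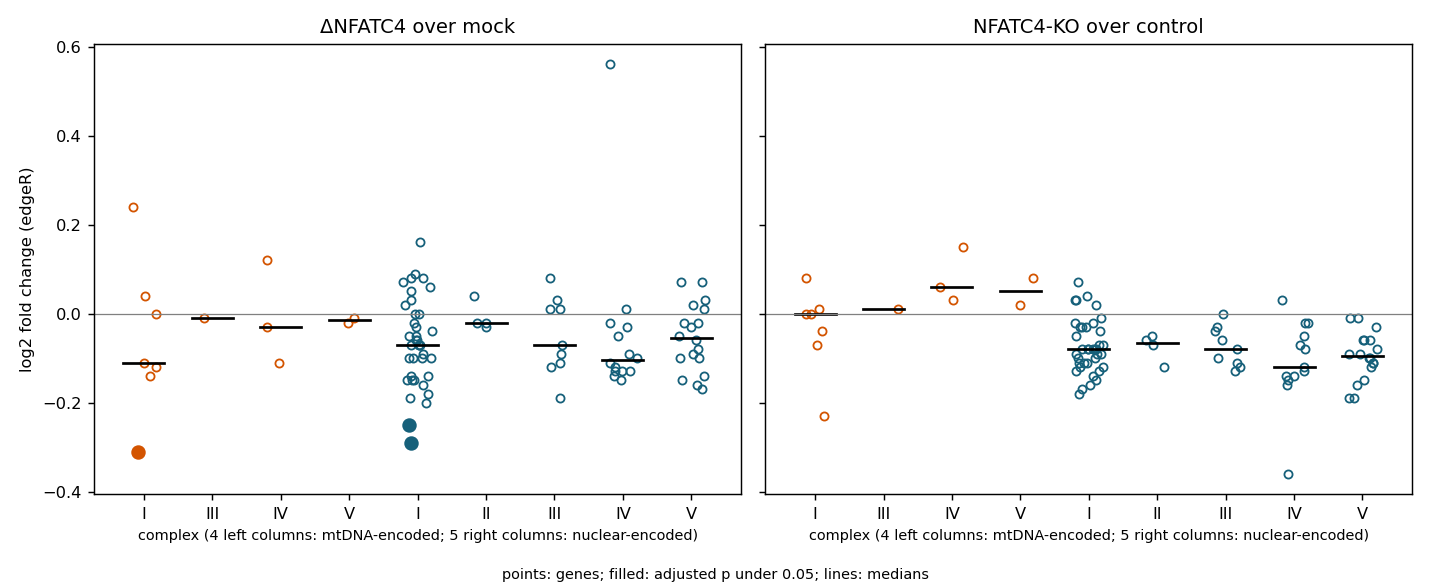
Log2 fold changes by edgeR of each member tested, by complex and genome, for ΔNFATC4 over mock (left) and NFATC4-KO over control (right); filled points have an adjusted p under 0.05 and lines are medians. The 3 filled points on the left are MT-ND3, NDUFC1 and NDUFB6, all complex I genes below 0, and none is filled on the right.

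The other mtDNA members did not pass the test. MT-CO1 had a log2 fold change of 0.12 (SE 0.07) and MT-ND1 of 0.04 (SE 0.08). Without mock replicate 1, the library with the highest mtDNA share, both passed, MT-CO1 with 0.18 (SE 0.05, adjusted p = 0.00484) and MT-ND1 with 0.14 (SE 0.05, adjusted p = 0.0387). That library had 21100 CPM of MT-CO1 and 5320 CPM of MT-ND1, against 17500 to 18700 CPM and 4160 to 4300 CPM in the other mock libraries. MT-ND2 (-0.14), MT-CO2 (-0.11), MT-ND4 (-0.12) and MT-ND4L (-0.11) were below 0, and MT-ATP8 (-0.02), MT-ATP6 (-0.01), MT-CO3 (-0.03), MT-CYB (-0.01) and MT-ND5 (0.00) were near it. MT-ATP8, MT-ATP6 and MT-CYB stood at 0.02 when libraries were scaled by their totals alone. MT-ND6 had 85.7, 84.1 and 110 CPM in ΔNFATC4 libraries, against 92.3, 63.0, 66.8 and 94.0 CPM in mock libraries, and the groups overlapped (log2 fold change 0.24, SE 0.16, adjusted p = 0.404).

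**Figure D3:**
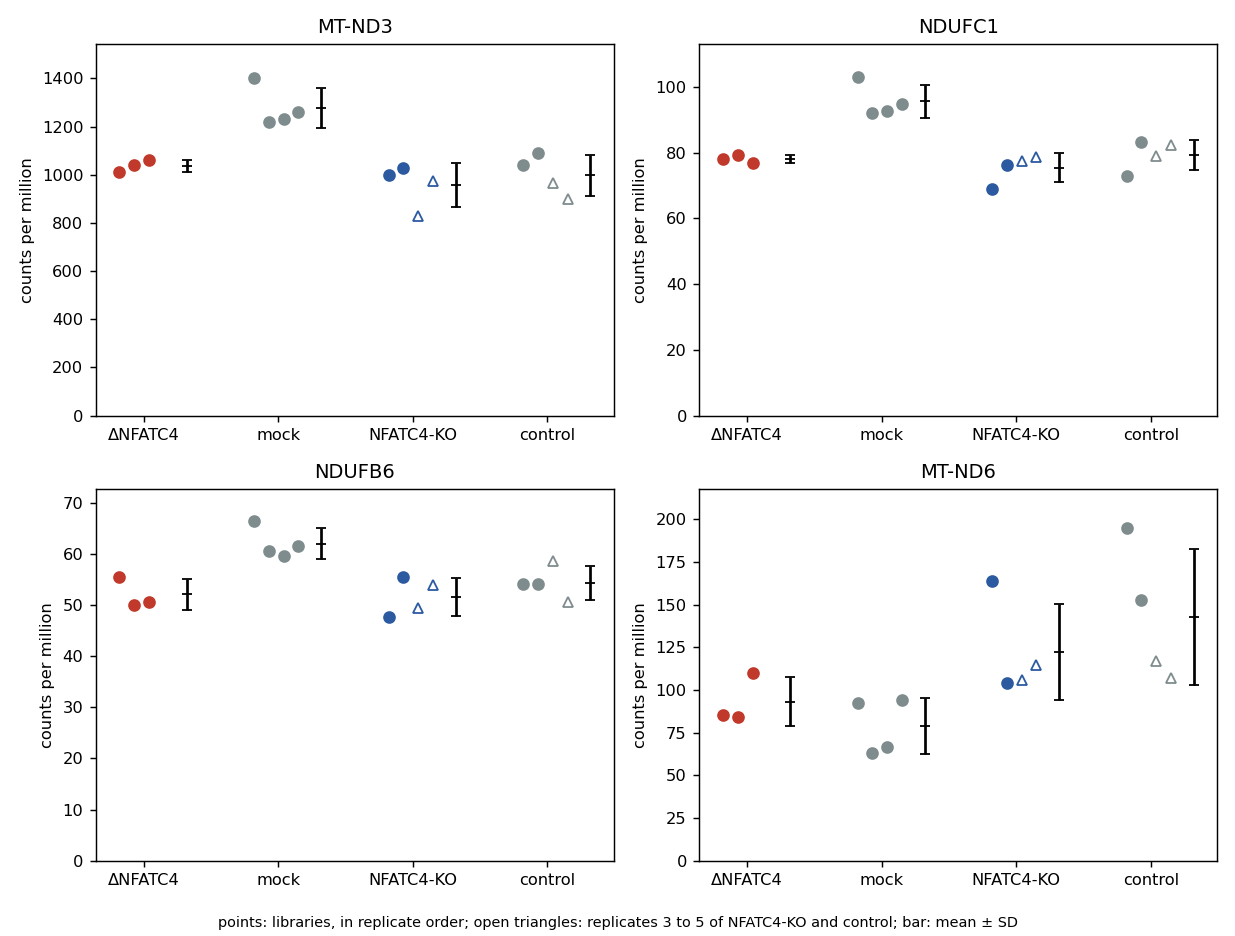
CPM in every library for MT-ND3, NDUFC1, NDUFB6 and MT-ND6; points are libraries, open triangles replicates 3 to 5 of NFATC4-KO and control, and bars the mean ± SD. For the first 3 genes the mock libraries stand above the other groups, and for MT-ND6 the NFATC4-KO and control libraries (104 to 195 CPM) stand mostly above the ΔNFATC4 and mock libraries (63.0 to 110 CPM).

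By complex, the nuclear members tested showed median log2 fold changes of -0.07 in complex I (38 genes, 2 fell), -0.02 in complex II (4 genes), -0.07 in complex III (9 genes), -0.10 in complex IV (14 genes) and -0.06 in complex V (18 genes). No gene of complexes II to V was called. In complex II, SDHA stood at 0.04 (SE 0.06) and SDHB, SDHC and SDHD at -0.02, -0.02 and -0.03 (SE 0.06 to 0.07). The widest value was that of COX7B2, a testis isoform of a complex IV subunit, with 0.809, 0.733 and 0.791 CPM in ΔNFATC4 libraries, against 0.564, 0.560, 0.659 and 0.359 CPM in mock libraries (log2 fold change 0.56, SE 0.30, adjusted p = 0.252).

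The second comparison sets the libraries labelled NFATC4-KO against control libraries. No member was called in NFATC4-KO libraries relative to control libraries, among 13 mtDNA and 82 nuclear members tested, and neither was any of the 13868 genes in all (0% rose and 0% fell by edgeR). At an unadjusted p under 0.05, 657 genes were higher and 600 lower, among them 1 mtDNA member above 0 and 2 nuclear members below 0. DESeq2 called 70 genes higher and 97 lower, with no member among them. The nuclear members leaned below 0: 75 of 82 did so, against 7206 of 13868 genes, with a median log2 fold change of -0.08 against -0.01 over all genes. Of the 13 mtDNA members 10 lay above 0, with a median of 0.01, but with the replicate block only 4 lay above and 9 below, with a median of -0.03. The nuclear lean kept its direction with the block (70 of 83 below 0, median -0.06). By complex the nuclear medians were -0.08 in complex I, -0.06 in complex II, -0.08 in complex III, -0.12 in complex IV and -0.10 in complex V. In complex II, SDHA stood at -0.06, SDHB at -0.07, SDHC at -0.12 and SDHD at -0.05 (SE 0.06 to 0.08).

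MT-CO1, the catalytic subunit of complex IV, was the mtDNA member farthest above 0. It had 17000, 15600, 16200 and 17300 CPM in NFATC4-KO libraries 1, 2, 3 and 5, against 15500, 15200, 14300 and 14500 CPM in control libraries 1 to 4. The groups did not overlap, and the log2 fold change was 0.15 (SE 0.05, edgeR adjusted p = 0.414). With the library set as a term of the fit, 4.39% of genes rose and 6.04% fell, and MT-CO1 rose (0.15, SE 0.05, adjusted p = 0.0475). In that fit no other member was called. There 14 of 82 nuclear members had an unadjusted p under 0.05 and a value below 0, against 1943 of 13868 genes. With the replicate number as a block, over the 3 numbers that both groups have, 0.317% of genes rose and 0.677% fell, and no member was called. An unadjusted p under 0.05 was found there for 2 nuclear members below 0 and for 1 mtDNA member above and 2 below. Of all 13890 genes in that fit, 897 had such a p above 0 and 1062 below. MT-ND6 had 164, 104, 106 and 115 CPM in NFATC4-KO libraries, against 195, 153, 117 and 107 CPM in control libraries, and the groups overlapped (-0.23, SE 0.22).

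The comparison was also fitted separately within each set, with 2 libraries a group. Within the set of replicates 3 to 5, 5.11% of 13765 genes rose and 4.40% fell. Here 6 of 81 nuclear members fell in NFATC4-KO libraries and none rose: ATP5MK, a membrane subunit of complex V (-0.33), COX7A2 (-0.29), COX7B (-0.29) and COX5A (-0.26), all structural subunits of complex IV, UQCRB of complex III (-0.26) and NDUFA4 of complex IV (-0.25). Of the mtDNA members, MT-CO1 (0.22) and MT-ATP6 (0.19) rose. Within the set of replicates 1 and 2, 7.88% of 13954 genes rose and 8.70% fell. Here 5 of 83 nuclear members fell and none rose: ATP5F1D, the delta subunit in the stalk of complex V (-0.39), NDUFA11 (-0.35) and NDUFB7 (-0.23), accessory subunits of complex I, NDUFS8, an iron-sulfur subunit of complex I (-0.32), and ATP5MC2, which encodes a precursor of the c ring of complex V (-0.16). No mtDNA member was called there. The 2 sets shared 0 called members, but the sharing over all genes was not counted, and few members were called in either. A member called in 1 set only need not differ between the sets. NDUFA11 alone among members was called for such a difference (below). The median over nuclear members was -0.12 in replicates 3 to 5 and -0.04 in replicates 1 and 2, and over mtDNA members 0.10 and -0.04.

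The genes called in the 2 sets differed in base composition. The median GC content of the coding transcripts was 43.6% over the 6 nuclear genes that fell in replicates 3 to 5 (39.4% to 51.3%) and 63.7% over the 5 that fell in replicates 1 and 2 (56.2% to 69.3%), against 49.0% over the 82 nuclear members. Across nuclear members the fold change ran with GC in opposite directions in the 2 sets, with a Spearman rho of 0.619 in replicates 3 to 5 (81 genes) and -0.579 in replicates 1 and 2 (83 genes). Over all genes with a coding transcript rho was 0.441 (13339 genes) and -0.278 (13523 genes). Genes of 1 library share its preparation and are not independent, so these are descriptions. Each library was also set against the mean of the 8: over nuclear members rho was 0.0434, -0.341, 0.104 and 0.419 in NFATC4-KO libraries 1, 2, 3 and 5, against 0.412, 0.358, -0.607 and -0.193 in control libraries 1 to 4. Control library 3 stood lowest. The part of base composition in the calls was not tested by itself. In alternative fits, chosen after these values were seen, each library's trend with GC was taken out as an offset. Those fits also estimated the spread and summed the libraries in another way (see the processing below). Their counts therefore differ from the others by more than GC. With that offset and the set term, 12 of 82 nuclear members fell and none rose, while 12.5% of all genes fell and 8.16% rose, and MT-CO1 was the 1 mtDNA member that rose. With the offset and the replicate block, 5 of 83 nuclear members and 2 of 13 mtDNA members (MT-ND3 and MT-ND6) fell, while 7.41% of all genes fell and 4.37% rose. With the offset within replicates 3 to 5, 9 of 13 mtDNA members rose and 8 of 81 nuclear members fell, while 4.16% of all genes rose and 5.58% fell. With it within replicates 1 and 2, 2 mtDNA and 3 nuclear members fell, while 6.09% of all genes rose and 6.98% fell. With the offset alone edgeR called no gene in either direction, members included.

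**Figure D4:**
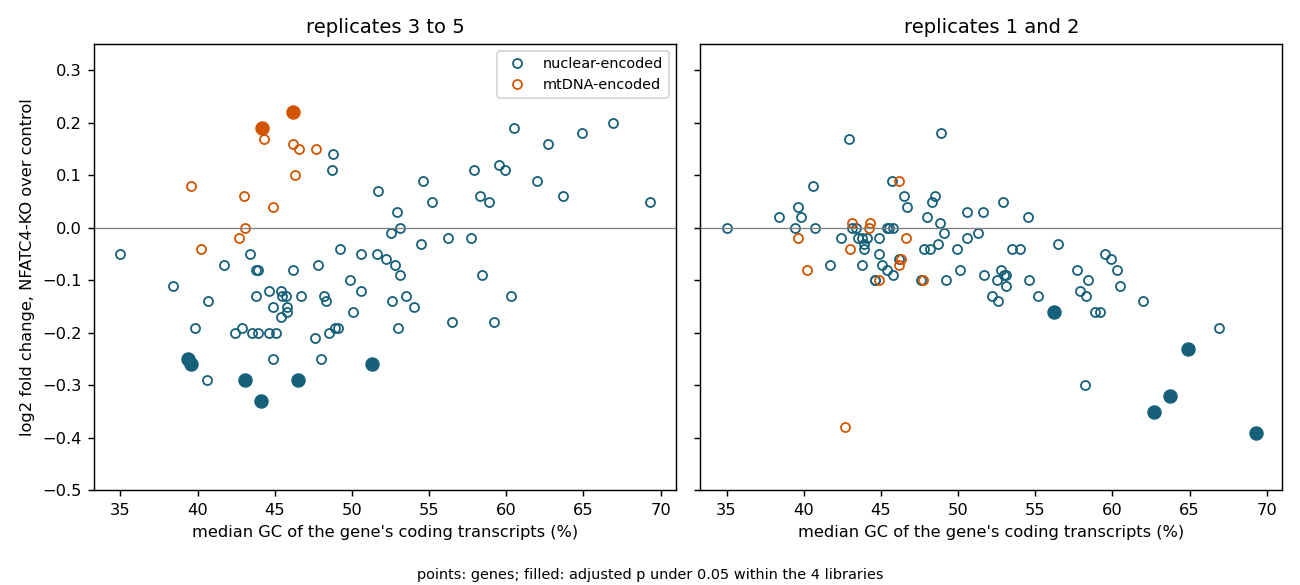
Log2 fold change of NFATC4-KO over control against the median GC content (%) of each member's coding transcripts, within replicates 3 to 5 (left) and within replicates 1 and 2 (right); filled points have an edgeR adjusted p under 0.05 within those 4 libraries. The 6 filled nuclear members on the left have 39.4% to 51.3% GC, and the 5 filled on the right 56.2% to 69.3%, all below 0. The mtDNA members lie mostly above 0 on the left.

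NDUFA11 was the 1 member called for a difference between NFATC4-KO and control that differed between the sets. It had 137 and 150 CPM in NFATC4-KO libraries of replicates 3 to 5, against 116 and 141 CPM in their controls, and 129 and 135 CPM in NFATC4-KO libraries of replicates 1 and 2, against 167 and 170 CPM in their controls. The log2 difference was 0.16 in replicates 3 to 5 and -0.35 in replicates 1 and 2, and the interaction was 0.50 (edgeR adjusted p = 0.0416). In all, 43 of 13868 genes were called for such an interaction. Members that were not called had values nearly as wide in both directions, such as ATP5F1D (0.43), NDUFB7 (0.40) and NDUFB3 (-0.38). The coding transcripts of NDUFA11 have 62.7% GC, and the part of base composition in its value was not tested. Of its exonic bases, 9.65% also lie in another annotated gene on the same strand.

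The libraries of the 2 sets also differed from each other with the label held aside. This comparison was cut by the replicate numbers in the titles after the split had been seen in the data, so it carries no test. Over both labels, 20.0% of genes were lower and 17.6% higher in every library of replicates 3 to 5 than in every library of replicates 1 and 2. Of the 13 mtDNA members, 5 were lower in this sense and none higher. Of 82 nuclear members, 12 were lower and 4 higher, both under the shares of all genes. The median log2 difference was -0.15 over mtDNA members and 0.00 over nuclear members. The 5 mtDNA members were MT-CO2 (-0.26), MT-ATP6 (-0.23), MT-ATP8 (-0.20), MT-ND3 (-0.18) and MT-ND4L (-0.15). MT-ND6 had the widest difference (-0.43) with overlapping values, and MT-ND5 (0.11) and MT-ND1 (0.02) were above 0.

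A few nuclear members separated the sets widely. COX6B1, a subunit of complex IV on the outer face of the inner membrane, had 117 and 104 CPM in NFATC4-KO and 114 and 129 CPM in control libraries of replicates 3 to 5, against 168 and 186 CPM and 179 and 184 CPM in those of replicates 1 and 2, a log2 difference of -0.63. Both labels showed it, with -0.68 in NFATC4-KO and -0.58 in control libraries, and the ΔNFATC4 (196 to 208 CPM) and mock libraries (193 to 244 CPM) lay above both sets. Its rarer isoform COX6B2 had 0.256 and 0.129 CPM in NFATC4-KO and 0.345 and 0.275 CPM in control libraries of replicates 3 to 5, against 1.36 and 1.51 CPM and 1.13 and 2.38 CPM in those of replicates 1 and 2 (-1.45). COX6B2 held only 3 to 8 counts a library in replicates 3 to 5, so the size of this difference is imprecise. Of its exonic bases, 29.1% also lie in another annotated gene on the same strand. NDUFS6, a zinc-binding subunit of complex I, had 35.2 to 40.0 CPM in replicates 3 to 5, against 50.4 to 58.0 CPM in replicates 1 and 2 (-0.53). COX7C, a small subunit of complex IV, had 138 to 159 CPM in replicates 3 to 5, against 188 to 220 CPM in replicates 1 and 2 (-0.44).

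Other nuclear members were higher in replicates 3 to 5. ATP5PD, the d subunit of the peripheral stalk of complex V, had 129 and 120 CPM in NFATC4-KO and 139 and 132 CPM in control libraries, against 97.4 and 108 CPM and 108 and 109 CPM in replicates 1 and 2, a log2 difference of 0.30. NDUFB4 (0.22) and NDUFA10 (0.18), accessory subunits of complex I, and UQCRC2 (0.18), a core protein of complex III, also separated the sets. The 3 promoters printed above belong to members on both sides of this split. Only promoters with a core were printed, so the cores in them say nothing about the split. The NDUFB4 promoter window holds an NRF1 core. That of COX7C holds none of the 3 cores searched, and neither do those of NDUFC1 and NDUFB6, the nuclear members called in the first comparison.

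**Figure D5:**
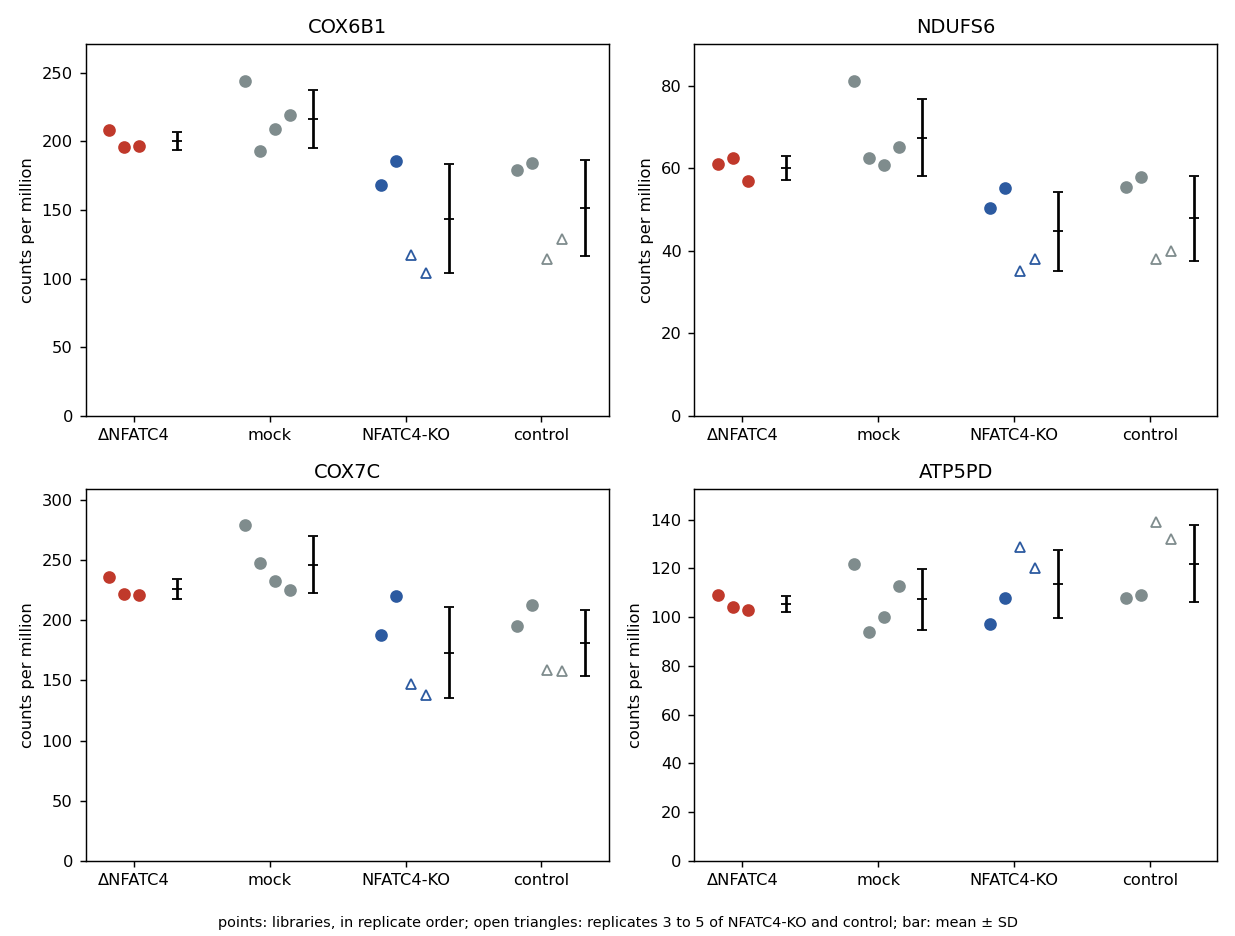
CPM in every library for COX6B1, NDUFS6, COX7C and ATP5PD; points are libraries, open triangles replicates 3 to 5 of NFATC4-KO and control, and bars the mean ± SD. In the NFATC4-KO and control groups the open triangles lie below the filled points for the first 3 genes and above them for ATP5PD.

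The mock and ΔNFATC4 libraries stood above the set of replicates 1 and 2 for many members, and this is again a description. Of all genes, 16.4% were higher and 18.9% lower in every mock library than in every library of replicates 1 and 2, and for the ΔNFATC4 libraries 19.6% were higher and 23.5% lower. In mock libraries 8 of 13 mtDNA and 36 of 82 nuclear members were higher (61.5% and 43.9%), and 1 of each was lower. In ΔNFATC4 libraries 8 mtDNA and 33 nuclear members were higher, with 1 nuclear member lower. Both groups were higher for 7 mtDNA members and 22 nuclear members (26.8%), against 10.1% of all genes. The nuclear share was largest in complex IV (11 of 13 higher in mock) and complex V (11 of 18), and 0 of 4 in complex II. In mock libraries ATP5MJ, a small subunit of complex V (0.47), and UQCR11 of complex III (0.43) were farthest above, and in ΔNFATC4 libraries ATP5F1C, the gamma subunit of complex V (0.35), and ATP5MJ (0.34). NDUFS1, the largest iron-sulfur subunit of complex I, was the 1 nuclear member lower in both (-0.37 in mock and -0.31 in ΔNFATC4). MT-ND6 was the 1 mtDNA member lower in mock libraries, with 63.0 to 94.0 CPM, against 104 to 195 CPM in replicates 1 and 2 (-0.95), while MT-ND1 (0.32), MT-ND2 (0.31) and MT-CYB (0.30) were above. Since the groups differ in transfection, time and culture, these cannot be told apart here.

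Around the chain itself, few genes of the related lists changed in ΔNFATC4 cells. Of 16 complex I assembly factors tested, 2 rose (FOXRED1, 0.27, and NDUFAF5, 0.26) and 1 fell (NDUFAF7, -0.33), and of 36 assembly factors of the other complexes none was called. Of 16 genes of mtDNA replication and transcription, POLG, the mtDNA polymerase, fell (-0.28) and LONP1, a matrix protease, rose (0.22). Of 20 electron carriers and exporters of ATP, COQ8A, needed for coenzyme Q synthesis, fell (-0.25). None of 17 genes of mitochondrial RNA processing, 13 regulators of biogenesis and 19 enzymes of the citric acid cycle was called. Neither was any of 8 genes listed for the mitochondrial steroidogenic electron chain and cholesterol import. Of the hypoxia-linked genes, 7 of 10 tested fell and 1 rose, with a median of -0.55. ALDOC, a glycolytic aldolase, had 51.8, 48.1 and 48.3 CPM in ΔNFATC4 libraries, against 135, 124, 156 and 95.1 CPM in mock libraries (log2 fold change -1.36). BNIP3, a mitophagy receptor, had 119, 111 and 114 CPM in ΔNFATC4 libraries, against 203, 208, 217 and 144 CPM in mock libraries (-0.75). For ALDOC the mock libraries stood above all other groups (49.3 to 64.3 CPM in NFATC4-KO and control libraries), and mock library 4 was the lowest of its group for both genes. NDUFA4L2, a relative of NDUFA4 known to be induced in hypoxia, had 1.01, 1.38 and 1.32 CPM in ΔNFATC4 libraries, against 0.0868, 0.0431, 0.141 and 0.179 CPM in mock libraries, where 3 counts are worth 0.107 to 0.139 CPM. It rose (edgeR adjusted p = 3.85e-06), and so few mock counts leave the size of its change imprecise.

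In NFATC4-KO libraries no gene of these lists was called in the main comparison. With the set term, NDUFAF3, an assembly factor of complex I (-0.20), PNPT1, a mitochondrial RNA exonuclease (-0.27), ESRRG, a nuclear receptor of the biogenesis list (-0.24) and PDK1, which inhibits pyruvate dehydrogenase (-0.27), fell, while POLG (0.33) and the glycolytic regulator PFKFB4 (0.34) rose. Of the 8 genes listed for the mitochondrial steroidogenic electron chain and cholesterol import, TSPO (-1.20), STAR (-0.42), which carries cholesterol into mitochondria, and FDX1, adrenodoxin (-0.28), fell. TSPO had only 0.339 to 0.629 CPM in NFATC4-KO libraries, against 0.642 to 1.26 CPM in control libraries, where 3 counts are worth 0.116 to 0.145 CPM. The size of its change is therefore imprecise. With the replicate block only POLG and STAR of the genes named in this paragraph were called.

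The cells carried the markers of their label. All 8 adrenocortical markers were detected in every group, with a summed level of 2050 to 2350 CPM in ΔNFATC4, against 2020 to 2220 in mock libraries, and 1060 to 1560 CPM in NFATC4-KO, against 1120 to 2160 in control libraries. In ΔNFATC4 cells 3 of the 8 rose, among them MC2R, the corticotropin receptor (0.97), and the steroid dehydrogenase HSD3B2 (0.61), and CYP17A1 fell (-0.45). In NFATC4-KO libraries none was called without a term, and 5 fell with the set term, CYP17A1 (-0.74), MC2R (-0.53) and HSD3B2 (-0.44) the most. With the replicate block 2 fell, CYP17A1 (-0.66) and STAR (-0.37). Of 11 markers of other cells, 1 to 3 were at 0 throughout a group. Their sum was 51.7 to 57.0 CPM in ΔNFATC4, against 24.5 to 29.7 in mock libraries. It was 20.7 to 27.6 CPM in NFATC4-KO, against 24.0 to 30.4 in control libraries. In ΔNFATC4 cells CD68 (1.82) and COL3A1 (1.66) rose. COL3A1 had 35.6 to 41.0 CPM in ΔNFATC4, against 10.7 to 13.3 in mock libraries, and made up most of the higher sum. CD68 had only 0.259 to 0.538 CPM in mock libraries, so the size of its change is imprecise. The part of these markers in the values of the respiratory chain genes was not tested. In bulk RNA, fewer cells of a type and less RNA per cell cannot be told apart.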

How the data were processed

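Poly(A) RNA of NCI-H295R cells was sequenced by the authors from stranded libraries (Illumina TruSeq Stranded mRNA, 15 samples), and reads were aligned with STAR to GRCh38.p13 and counted per gene with featureCounts. The strand setting and the treatment of reads in overlapping genes are not given in the sources used here. The deposited values are whole read counts per gene ID, not normalized, and hold 13 mtDNA genes, so rRNA and tRNA genes of mtDNA were not analysed here. Symbols came from GENCODE release 44 and matched 21400 of 21493 IDs. No protein sequences were used. The members and all gene lists were chosen with earlier results of these data known.

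CPM values (counts scaled to library size) used TMM-scaled library sizes over all 15 libraries. Each comparison was fitted over its own 7 or 8 libraries with edgeR 4.0.16 (R 4.3.3) after filterByExpr, TMM and a quasi-likelihood test, with Benjamini-Hochberg adjustment over all genes tested and a threshold of 0.05. Standard errors are the fold change over the square root of F. DESeq2 1.42.0 was an alternative. Differences between library sets used log2(CPM + 0.5). Both fits were run on simulated counts with known changes. For NFATC4-KO and control the simulated counts held no difference between the library sets, and their spread was estimated with the set as a term. That simulation therefore does not show what the fit without the term can recover in these libraries. A count of 0 allows 3 counts, and intervals cover counting error only. Libraries of a group differed from each other by 2.25 to 64.3 times the sampling noise (chi-square over degrees of freedom), so none was a repeat deposit.

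Genes named are all 13 mtDNA members, isoform pairs of complex IV, SDHA to SDHD, up to 4 rises and 4 falls per comparison among nuclear members that were called or, for the sets, did not overlap (1 CPM or more on average in some group), and up to 3 called genes per other list. COX7B2, NDUFA11, ATP5MJ, ATP5F1C, UQCR11, NDUFS1, the members called within a set, NDUFB2, NDUFB3, NDUFC2-KCTD14, ATP5F1B, NDUFS5 and ATP5ME were named after their values were seen. Same-numbered NFATC4-KO and control libraries deviated together from their group means (correlations 0.850, 0.819 and 0.743 for numbers 1, 2 and 3). The library sets fall on the same numbers in both groups, which by itself can raise these correlations. They therefore do not show that the numbers pair the samples, and the replicate block is given beside that comparison as an alternative only. For ΔNFATC4 and mock the correlations were 0.174, -0.158 and 0.0541. GC content is the median over a gene's protein-coding GENCODE transcripts. The GC offset took a lowess trend of each library out of the fit. Unlike the other edgeR fits, those with this offset left out the robust option for the spread and summed library sizes over the genes tested only.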

Additional observations from a re-analysis of the deposited data

Results flagged for a closer look

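A test for a library far from the rest of its group was applied to 99 groups of 4 libraries. It marked 4, where chance marks about 1 in 20. Mock replicate 1 stood above the other mock libraries for MT-ND1 (5320 CPM, against 4160 to 4300), MT-ATP8 (2540 CPM, against 2290 to 2330) and MT-CYB (13600 CPM, against 10600 to 10800). The same library had the highest mtDNA and nuclear shares of counts. NFATC4-KO replicate 2 stood above the other NFATC4-KO libraries for COX6A1 (125 CPM, against 112 to 113). NDUFA11 differed in its NFATC4-KO minus control difference between the 2 library sets, by an interaction of 0.50 on the log2 scale (edgeR adjusted p = 0.0416). It was 1 of 82 nuclear members tested.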

How the results depend on the processing

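Between ΔNFATC4 and mock, the 2 nuclear calls were 1 with all 15 libraries fitted together, 4 with the replicate block and 0 with a fold change over 2 required as well, and 1 to 4 over fits without 1 library. The 1 mtDNA call was 0 with all 15 libraries, 2 with the replicate block (MT-ND6 rose, 0.34), 0 with the fold requirement and 1 to 3 without 1 library. The numbers of these groups did not pair the samples. Other scalings, count filters and DESeq2 kept the genes MT-ND3, NDUFC1 and NDUFB6.

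Between NFATC4-KO and control, the nuclear count of 0 became 5 within replicates 1 and 2 and 6 within replicates 3 to 5. With a GC offset, chosen after the data were seen, it was 12 with the set term, 5 with the replicate block, 3 within replicates 1 and 2 and 8 within replicates 3 to 5, all lower. The mtDNA count of 0 became 1 with the set term and 2 within replicates 3 to 5, and with the GC offset 1 with the set term, 2 with the replicate block (lower), 2 within replicates 1 and 2 (lower) and 9 within replicates 3 to 5 (higher). Without 1 library both stayed at 0. The fits with the GC offset also differed in their estimate of the spread, and no cause of these differences was tested by itself. The differences between the sets kept their sign for mtDNA members (median -0.17 to -0.11 without 1 library), while the nuclear median ran over -0.04 to 0.03.

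Several log2 fold changes of members that were not called crossed 0. For ΔNFATC4 over mock, scaling by library totals gave 0.02 for MT-ATP8, MT-ATP6 and MT-CYB, 0.01 for COX6B2, SDHB, SDHC and SDHD and 0.00 for COX8A. The replicate block gave -0.08 for MT-ND5, 0.07 for COX6B2 and 0.02 for SDHB. MT-ND5 stood at 0.00 with no count filter and with all 15 libraries, and MT-CYB at 0.00 with the filter of 50 counts. Without 1 library the ranges were -0.03 to 0.02 (MT-ATP8), -0.05 to 0.05 (MT-ATP6), -0.06 to 0.02 (MT-CO3), -0.08 to 0.07 (MT-ND5), -0.05 to 0.09 (MT-CYB), -0.03 to 0.06 (COX4I1), -0.16 to 0.08 (COX6B2), -0.08 to 0.02 (COX8A), -0.06 to 0.02 (SDHB), -0.06 to 0.01 (SDHC) and -0.06 to 0.02 (SDHD).

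For NFATC4-KO over control, the replicate block gave -0.03 for MT-ND1, MT-ND2 and MT-CYB, -0.04 for MT-CO2, -0.02 for MT-ATP8 and -0.01 for MT-ND4L. Within replicates 1 and 2 the values were -0.10 (MT-ND1), -0.04 (MT-ND2), -0.07 (MT-CO2), -0.02 (MT-ATP8), 0.00 (MT-ATP6), -0.02 (MT-CO3), -0.06 (MT-CYB), 0.06 (COX7A2) and 0.05 (SDHD). Within replicates 3 to 5 they were 0.04 (MT-ND5), 0.00 (COX4I1) and 0.11 (COX8A). MT-ND4L stood at 0.00 with DESeq2 and with its size factors in edgeR. Without 1 library the ranges were -0.03 to 0.06 (MT-ND1), -0.02 to 0.03 (MT-ND2), -0.04 to 0.09 (MT-CO2), -0.03 to 0.06 (MT-ATP8), -0.06 to 0.03 (MT-ND4L), -0.08 to 0.04 (MT-ND5), -0.01 to 0.04 (MT-CYB), 0.00 to 0.07 (COX6A1), -0.23 to 0.05 (COX6B1), -0.86 to 0.45 (COX6B2), -0.10 to 0.05 (COX8A) and -0.11 to 0.01 (SDHD). COX6B2 held few counts, which limits its value.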
